A study of Mus musculus with 6 samples.

Results

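The genes followed, of the ATF4 stress response and of serine synthesis, were taken by name, with earlier results of these data known: Atf4, Atf5, Ddit3, Trib3, Chac1, Asns, Phgdh, Psat1, Psph and Shmt2. These are 10 of the 54446 genes in the count tables, and all 10 were among the 18439 genes with enough counts to be tested. Ddit3 is listed under 2 identifiers, so the names take up 11 entries; the second lies within the first on the same strand and held 0 UMIs. UMIs (unique molecular identifiers) count captured RNA molecules, and levels are given as CPM, the UMIs of a gene in called cells scaled to a common library size. A 5′ droplet kit reads 1 end of each transcript, and no level is compared between genes.

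ATF4 is the transcription factor of the integrated stress response: kinases that sense unfolded protein, missing amino acids, haem shortage or viral RNA phosphorylate the initiation factor eIF2, most translation slows, and the Atf4 mRNA is translated more. Its level of protein is therefore set largely by translation, which RNA counts do not read. Its known targets include further stress regulators, amino acid transporters, tRNA synthetases and the enzymes that make asparagine and serine, and glioma cells are among the tumour cells in which serine synthesis has been studied.

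The study compared GL261, a mouse glioblastoma cell line grown in medium with fetal calf serum (FCS), with GL261-GSCs, glioblastoma stem cells derived from that line and grown in defined GSC medium. There were 2 GL261 and 4 GL261-GSCs libraries, with no genetic change or agent named for either. Both were dissociated with Accutase and lysed in a detergent buffer, and the labels name both cells and nuclei as what may have been captured. Nothing in the labels says whether replicates came from separate cultures, so p-values measure only the spread between these libraries, which may be technical; medium and cell state change together and cannot be told apart.

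The libraries held 80899005 to 121309232 UMIs and 4264 to 7275 called cells, with a median of 6670 to 15478 UMIs per cell. GL261-GSCs replicate 4 was the shallowest, with 41.2% of its UMIs in called cells against 56.7% to 65.7% in the other libraries. Pairs of libraries shared 32 to 59 cell barcodes. Of 5 glioma markers, Vim and Nes were lower in GL261-GSCs and Sox2, Olig2 and Pdgfra higher, all called; their sum, most of it Vim, was 15311 to 16553 CPM in GL261 and 5523 to 6257 CPM in GL261-GSCs. For other cell types, the 6 myeloid markers summed to 19.7 to 20.9 CPM in GL261 and 9.21 to 23.2 CPM in GL261-GSCs. C1qa was at 0 UMIs throughout, but Csf1r, called lower, was at 1632 UMIs in GL261 and 59 in GL261-GSCs. Cd68 went the other way, at 956 UMIs in GL261 and 3903 in GL261-GSCs (log2 fold change 1.11, not called), and made up most of the GL261-GSCs sum. Of the oligodendrocyte markers, Mog was higher and Mbp lower in GL261-GSCs, both called. The 3 astrocyte markers (Aqp4 at 0) summed to 8.15 to 8.43 and 58.7 to 289 CPM, most of it Aldoc, which was called higher, while Gfap was called lower, with 165 UMIs in GL261 and 3 in GL261-GSCs. The 3 neuron markers (Rbfox3 at 0) summed to at most 0.0331 CPM in GL261 and to 1.15 to 78.2 CPM in GL261-GSCs, most of it Syt1. The 4 endothelial markers (Cldn5 at 0) summed to at most 1.63 CPM, the 3 T cell markers to at most 0.148 CPM and the 2 erythroid ones (Hbb-bs at 0) to at most 0.0444 CPM in any library. The part of these differences in the other results was not tested.

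All 10 genes had a lower fitted level in GL261-GSCs than in GL261, and 5 of them, Atf5, Chac1, Asns, Phgdh and Trib3, fell past the threshold, an adjusted p under 0.05 in edgeR's quasi-likelihood test with Benjamini-Hochberg adjustment over all genes tested. Over all genes, 29.9% passed in either direction, 14.1% as lower and 15.8% as higher, and 47.9% had a fitted fold change below 0. All 10 averaged 4 or more in log2 CPM, and of the 7739 genes at that level 17.2% passed as lower and 54.9% were below 0. None of the 10 rose. In 9 of the 10, all but Psph, every GL261-GSCs library lay below both GL261 libraries, which held for 28% of all genes. The median log2 fold change of the 10 was -0.91, against 0.04 over all genes tested. In sums over cells, fewer cells with a transcript and less of it per cell cannot be told apart.

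**Figure D1:**
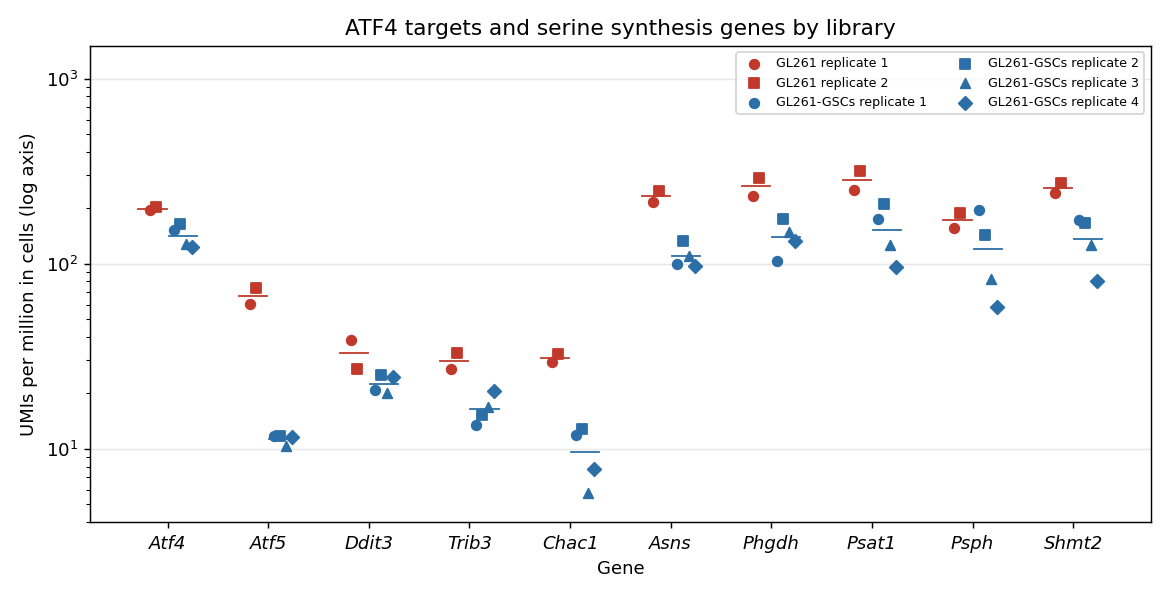
Level of each gene (CPM, log axis) in the 2 GL261 libraries (red) and the 4 GL261-GSCs libraries (blue), 1 point per library; short lines are group means. The groups are separate for every gene but Psph, where GL261-GSCs replicate 1, at 196 CPM, lies above both GL261 libraries.

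Atf4 itself (ENSMUSG00000042406.8, mm10 chr15:80255184-80257541, plus strand) stood at 194 and 202 CPM in the GL261 libraries. In GL261-GSCs replicates 1 to 4 it stood at 152, 163, 127 and 122 CPM. Every GL261-GSCs library was below both GL261 libraries, and replicates 3 and 4 were the lowest. The fitted difference on the log2 scale was -0.49 with an SE of 0.15, and its adjusted p of 0.0545 in edgeR misses the threshold; it passed with DESeq2's Wald test, at 0.0223.

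Atf5 (ENSMUSG00000038539.15, chr7:44812256-44816658, minus strand) codes for a related bZIP factor that is itself translated more when eIF2 is phosphorylated. It had the largest fall of the 10, from 60.1 and 73.4 CPM in GL261 to 11.7, 11.7, 10.3 and 11.5 CPM in GL261-GSCs. The 4 GL261-GSCs libraries lay close together and far below GL261. This is 5.90-fold lower (log2 fold change -2.56, SE 0.13, adjusted p = 9.24e-05, edgeR), and Atf5 alone passed the threshold whichever library was left out. It overlaps Nup62 by 571 bases and Il4i1 by 272 bases on the other strand, and the sources used here do not give whether the counting used strand.

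Ddit3 (ENSMUSG00000025408.15, chr10:127290774-127296288, plus strand) codes for CHOP, the factor that turns a lasting stress response toward cell death. It stood at 38.5 and 26.8 CPM in GL261 and at 20.6, 24.9, 19.9 and 24.4 CPM in GL261-GSCs. The groups did not overlap, but GL261 replicate 2 was closer to GL261-GSCs replicate 2 than to GL261 replicate 1. The log2 fold change of -0.54 (SE 0.19) did not pass (adjusted p = 0.0700, edgeR), though it did with DESeq2's Wald test (0.0419). It was -0.27 without GL261 replicate 1 and -0.78 without GL261 replicate 2. Mars, on the other strand, overlaps it by 68 bases.

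Trib3 (ENSMUSG00000032715.9, chr2:152337422-152344032, minus strand) codes for a pseudokinase that ATF4 and CHOP induce. Its levels were 26.9 and 32.9 CPM in GL261 and 13.4, 15.1, 16.7 and 20.6 CPM in GL261-GSCs. Unlike the other genes, it was highest among the GL261-GSCs libraries in replicate 4. It was 1.82-fold lower in GL261-GSCs (log2 fold change -0.86, SE 0.20, adjusted p = 0.0184, edgeR).

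Chac1 (ENSMUSG00000027313.3, chr2:119351229-119354381, plus strand) codes for an enzyme that breaks down glutathione and is a sensitive readout of ATF4. It stood at 29.4 and 32.4 CPM in GL261 and at 11.9, 12.8, 5.78 and 7.80 CPM in GL261-GSCs. All 4 were below GL261, and replicates 3 and 4 were below replicates 1 and 2. It was 3.23-fold lower (log2 fold change -1.69, SE 0.32, adjusted p = 0.00855, edgeR), the second largest fall of the 10.

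Asns (ENSMUSG00000029752.12, chr6:7675169-7693254, minus strand) codes for asparagine synthetase, a classic target of the amino acid response. It stood at 214 and 247 CPM in GL261 and at 99.6, 133, 110 and 96.5 CPM in GL261-GSCs. All 4 GL261-GSCs libraries were well below GL261, with replicate 2 the highest. It was 2.10-fold lower (log2 fold change -1.07, SE 0.16, adjusted p = 0.00372, edgeR).

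ATF4 pairs with C/EBP factors on a composite element whose core reads TGATGNAA. That core was searched on both strands in RefSeq's promoter windows (build GRCm38.p6, 250 bases before each start to 50 after); all 10 genes matched, with 12 windows. It was found in Chac1, Asns and Trib3, which are 3 of the 5 genes that fell. None of the other 7 genes held it, among them Atf5 and Phgdh, which also fell. Of all 32851 windows 3.97% hold it, and of genes with a window 4.51%. The 10 genes were picked partly as ATF4 targets, so these counts do not bear on the fall, whose cause was not tested. The sequences of the 3 genes with a match are shown. Capitals mark the match, a description of letters and not evidence of a bound site. For Chac1 (chr2:119350992-119351241, plus strand) it lies 193 to 186 bases before the start, and for Asns (chr6:7693210-7693459, minus strand) 23 to 16 bases before it. For Trib3 (chr2:152344028-152344057, minus strand) it lies 14 to 21 bases past the start, and the 30 bases around it are shown.
Chac1: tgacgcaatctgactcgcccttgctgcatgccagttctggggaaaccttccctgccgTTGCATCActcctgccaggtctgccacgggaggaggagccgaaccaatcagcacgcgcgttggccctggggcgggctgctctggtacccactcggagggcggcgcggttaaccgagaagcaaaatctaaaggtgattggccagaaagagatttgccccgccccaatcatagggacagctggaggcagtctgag
Asns: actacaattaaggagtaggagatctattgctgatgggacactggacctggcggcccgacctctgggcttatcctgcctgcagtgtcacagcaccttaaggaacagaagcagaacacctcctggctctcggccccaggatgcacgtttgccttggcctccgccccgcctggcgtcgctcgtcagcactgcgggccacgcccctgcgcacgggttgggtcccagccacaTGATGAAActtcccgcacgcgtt
Trib3: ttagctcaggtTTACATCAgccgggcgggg

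The serine genes make serine from the glycolytic intermediate 3-phosphoglycerate in the order Phgdh, Psat1, Psph, and Shmt2 then turns serine into glycine and a one-carbon unit in mitochondria. Of these 4, Phgdh passed the threshold. Phgdh (ENSMUSG00000053398.11, chr3:98313170-98339990, minus strand), the first and committed step, stood at 231 and 292 CPM in GL261 and at 104, 173, 148 and 132 CPM in GL261-GSCs. Replicate 1 was the lowest of the GL261-GSCs libraries. It was 1.88-fold lower (log2 fold change -0.91, SE 0.21, adjusted p = 0.0202, edgeR). Its pseudogene Phgdh-ps1 held 56 UMIs in GL261 and 1 in GL261-GSCs.

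Psat1 (ENSMUSG00000024640.9, chr19:15904678-15947337, minus strand), the aminotransferase, stood at 250 and 318 CPM in GL261 and at 173, 211, 126 and 95.5 CPM in GL261-GSCs. The groups did not overlap, and replicates 3 and 4 were again below replicates 1 and 2. Its log2 difference of -0.91 (SE 0.31) had the size of that of Phgdh with a larger error, and did not pass (adjusted p = 0.0644, edgeR; 0.0221 with DESeq2's Wald test).

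Psph (ENSMUSG00000029446.14, chr5:129765558-129787449, minus strand), the phosphatase of the last step, was the one gene with overlapping groups. It stood at 155 and 189 CPM in GL261 and at 196, 142, 82.8 and 58.5 CPM in GL261-GSCs, so that replicate 1 was above both GL261 libraries and replicate 4 far below. The log2 fold change was -0.52 (SE 0.45, adjusted p = 0.413, edgeR), and no setting or left-out library brought it past the threshold. It ran from -0.85 without GL261-GSCs replicate 1 to -0.27 without replicate 4. With the replicate number as a block, where the group difference rests on replicates 1 and 2, it was -0.036 (SE 0.20). Psph overlaps Cct6a, with 153887 UMIs, by 452 bases on the other strand.

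Shmt2 (ENSMUSG00000025403.5, chr10:127517123-127522444, minus strand) stood at 240 and 274 CPM in GL261 and at 172, 166, 125 and 80.6 CPM in GL261-GSCs. All GL261-GSCs libraries were below GL261, with replicate 4 the lowest. Its log2 fold change of -0.92 (SE 0.29) just missed the threshold (adjusted p = 0.0545, edgeR) and passed with DESeq2's Wald test (0.0157).

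Leaving out a GL261 library leaves 1 in that group, assumed to vary like the other group, and ends most calls: without replicate 1 only Asns and Atf5 passed, and without replicate 2 only Atf5 (Asns then had an adjusted p of 0.0537, edgeR). Over all genes the calls fell from 5514 to 1972 and 1817 in those fits. All 10 genes stayed below 0 in each of the 18 settings run. For all but Psph the groups did not overlap, so leaving out a library could hardly change the sign. Scaling by total UMIs alone moved the median of all genes from 0.04 to 0.18 and the share of calls that were higher from 53.0% to 63.2%, and the same 5 genes passed.

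The GL261-GSCs libraries differed among themselves most for Psph, Psat1, Shmt2 and Chac1. Psph in replicate 1 was 1.14 higher on the log2 scale (CPM + 1) than the mean of the other 3 GL261-GSCs libraries, and in replicate 4 it fell by 1.16. In replicate 1, the 1306 tested genes of chromosome 5 had a median log2 ratio of 0.17 against the other 3. Phgdh in replicate 1 fell by 0.53, and the 1021 tested genes of chromosome 3 had a median of -0.27 there. A minimum average log2 CPM of 4 for these medians was added after the values without it had been seen, and it gave larger ones: 0.47 over 538 genes of chromosome 5 and -0.38 over 372 genes of chromosome 3. Other departures stood beside chromosome medians nearer 0, given here without and with that minimum. They were Psph in replicate 4 (-1.16) beside -0.085 and -0.35, and Shmt2 in replicate 4 (-0.92) beside -0.0023 and -0.13. Psat1 in replicate 4 (-0.79) stood beside -0.080 and -0.20, and Chac1 in replicate 3 (-0.78) beside -0.0045 and 0.00016. Between GL261-GSCs and GL261, the median log2 fold change without that minimum was -0.24 for chromosome 7 (Atf5) and -0.13 for chromosomes 3 (Phgdh) and 19 (Psat1). It was 0.37 for chromosome 15 (Atf4), 0.27 for 5 (Psph), 0.06 for 6 (Asns), 0.03 for 2 (Trib3, Chac1) and 0.004 for 10 (Ddit3, Shmt2). With the minimum these ran from -0.33 (chromosome 7) to 0.29 (chromosome 15). The part of chromosome-wide differences in the levels of these genes was not tested.

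**Figure D2:**
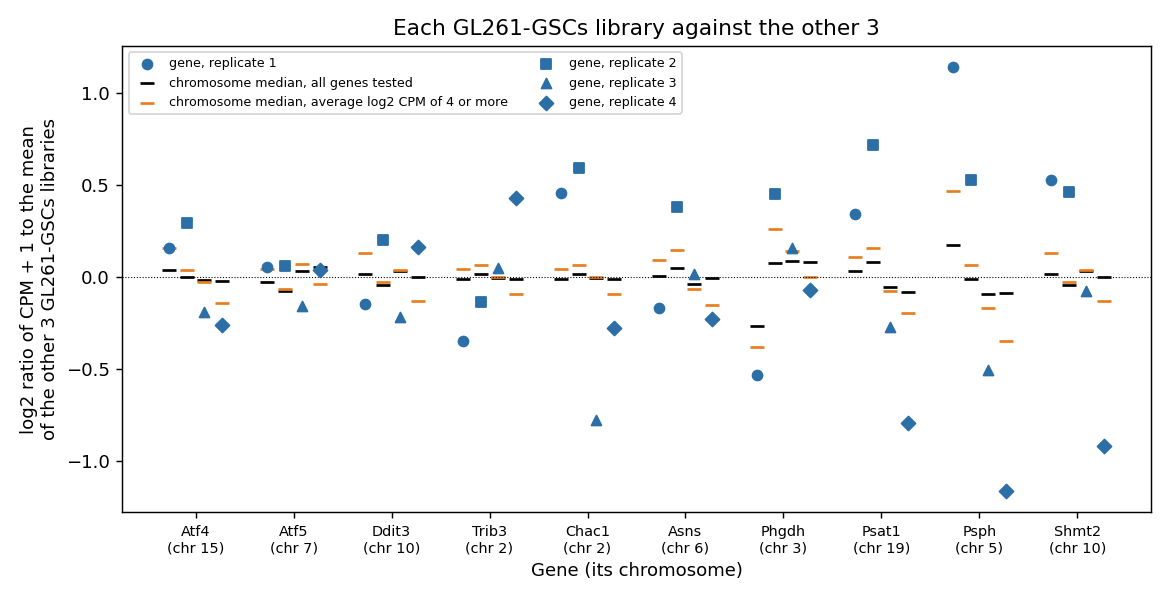
For each gene, the log2 ratio of CPM + 1 in each GL261-GSCs library to the mean of the other 3 (blue points), beside the median of the same ratio over genes of its chromosome, for all genes tested (black bars) and for those with an average log2 CPM of at least 4 (orange bars). Psph runs from 1.14 in replicate 1 to -1.16 in replicate 4, while Atf5 stays between -0.16 and 0.06.

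Psat1, Psph and Shmt2 were lower in replicates 3 and 4 than in 1 and 2, as were Atf4, Chac1 and, by little, Atf5. Phgdh, Asns, Ddit3 and Trib3 did not follow this order. Replicate 4 was also the shallowest library, with a summed level of 10 S phase genes of 693 CPM against 1057 to 1289 CPM in the other 3 GL261-GSCs libraries and 1190 and 1258 CPM in GL261. Its median mitochondrial share was 1.35%, against 0.953% to 1.26% in the other libraries. The part of depth and of the cell cycle in these levels was not tested. Without replicate 4 or without replicate 1, Shmt2 passed (adjusted p = 0.0256 and 0.0367, edgeR), and without replicate 2, Psat1 and Atf4 did (0.0345 and 0.0452).

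Other genes of the pathway were taken from lists by function; their counts stand against the 14.1% of all genes that passed as lower (17.2% at an average log2 CPM of 4 or more) and the 15.8% that passed as higher. Among 12 tested stress targets of ATF4 beyond the 10 genes, 6 fell (50%) and 1 rose (8.33%), with a median log2 fold change of -0.46. Gdf15, a secreted stress cytokine, went from 64.2 and 73.3 CPM to 14.4, 21.0, 13.5 and 20.1 CPM (3.99-fold lower, log2 SE 0.21, adjusted p = 0.000917, edgeR). Jdp2, a bZIP repressor, fell by 1.45 on the log2 scale (SE 0.23). Ddit4, an inhibitor of mTORC1 that glucocorticoids and low oxygen also induce, went the other way, from 223 and 226 CPM to 514, 404, 921 and 1066 CPM (log2 fold change 1.69, SE 0.43, adjusted p = 0.0253, edgeR). Stc2 had 0 UMIs in every library; Fgf21 had 0 in GL261 and 150 in GL261-GSCs, and the list's median is -0.46 also with Fgf21 held at 3 counts in GL261.

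Of the 8 kinases, eIF2 and phosphatase genes upstream of ATF4, 1 rose and 1 fell (12.5% each, near the shares of all genes; median 0.10). Eif2ak3, the kinase PERK of the endoplasmic reticulum (ER), went from 20.8 and 20.1 CPM to 47.2, 40.6, 47.3 and 50.9 CPM (log2 fold change 1.19, SE 0.14). Ppp1r15a, the GADD34 subunit that reverses eIF2 phosphorylation and is itself an ATF4 target, went from 64.2 and 58.2 CPM to 16.0, 17.97, 18.7 and 19.3 CPM (log2 fold change -1.77, SE 0.13, adjusted p = 0.000239, edgeR). The 2 genes moved in opposite directions, each with groups far apart.

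Among 20 cytosolic tRNA synthetases, which charge tRNAs with amino acids, 7 fell (35%) and 0 rose (median -0.38), led by Nars (log2 fold change -1.40, SE 0.12) and Cars (-1.22, SE 0.12). Nars stood at 344 and 348 CPM in GL261 and at 121 to 140 CPM in GL261-GSCs. In the folate and glycine list, the pathway downstream of Shmt2, 5 of 16 fell (31.3%) and 0 rose (median -0.28). Mthfd2, the mitochondrial enzyme that takes up the one-carbon unit that Shmt2 makes, went from 218 and 262 CPM to 140, 140, 93.4 and 66.4 CPM (log2 fold change -1.12, SE 0.30, adjusted p = 0.0323, edgeR), again lowest in replicate 4. Aldh1l2, which burns that unit to carbon dioxide, fell by 1.53 on the log2 scale (SE 0.25). Aldh1l1 held 872 UMIs in GL261 and 2 in GL261-GSCs.

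Of 10 enzymes of other amino acids, 4 fell (40%) and 1 rose (10%; median -0.55). Pck2, mitochondrial PEP carboxykinase and a known ATF4 target, went from 111 and 134 CPM to 33.0, 40.9, 27.9 and 32.9 CPM (log2 fold change -1.86, SE 0.17), and Glul, glutamine synthetase, fell by 0.93 (SE 0.17). Cbs, which joins serine to homocysteine on the way to cysteine, rose from 0.918 and 0.878 CPM to 16.5 to 24.4 CPM (log2 fold change 4.45, SE 0.25, adjusted p = 0.000101, edgeR). Of 10 amino acid transporters, 2 rose (20%) and 1 fell (10%), near the shares of all genes (median -0.24): Slc38a2 and Slc38a1, which carry small neutral amino acids, rose by 0.74 (SE 0.14) and 0.73 (SE 0.14), and Slc1a5, a glutamine carrier, fell by 0.65 (SE 0.17). The list of 14 ER chaperones and regulators of the ATF6 and XBP1 arms had a median of -0.06. Its 1 rise was Ern1 (1.66, SE 0.33), a sensor of ER stress and not a chaperone. Its 1 fall was Dnajc3 (-0.75, SE 0.23, adjusted p = 0.0499, edgeR), and each is 7.14% of the list. With 1 or the other GL261 library left out, the stress, synthetase, folate and synthesis lists had 1 to 3 falls each, where 5.21% and 4.98% of all genes passed as lower without replicate 1 and replicate 2.

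**Figure D3:**
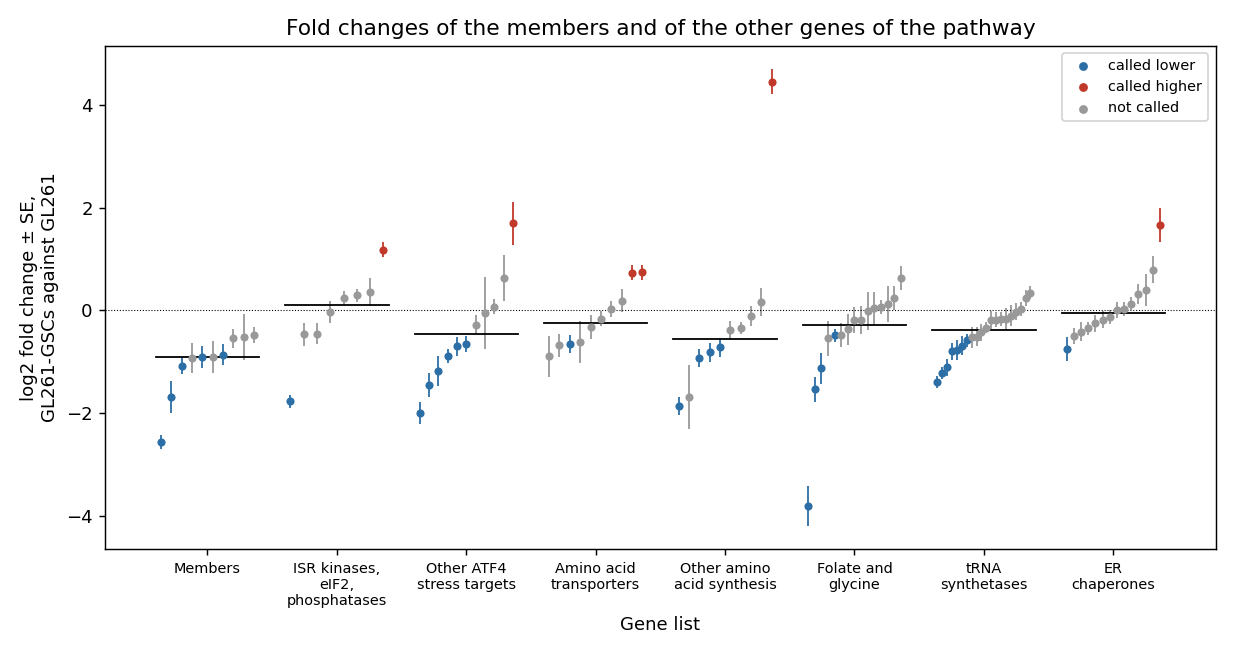
Log2 fold change with its SE for GL261-GSCs against GL261, 1 point per tested gene, by list; blue genes were called lower, red higher and grey not called, and black lines are list medians. The median is -0.91 for the 10 genes and -0.06 for the list of ER chaperones and their regulators. Fgf21 and Aldh1l1, with at most 3 UMIs in a group, are not drawn.

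Per cell these RNAs are sparse. Each cell was thinned to 2000 UMIs so that depths match, and at that depth the 10 genes together gave a mean of 2.71 and 3.07 UMIs per cell in GL261 and 1.86, 2.15, 1.47 and 1.35 in GL261-GSCs. Cells with a UMI of Atf5 made up 10.5% and 12.7% of GL261 cells and 2.06%, 2.42%, 2.27% and 2.28% of GL261-GSCs cells. Barcodes with 100 to under 1000 UMIs were read as free RNA, and broken cells or nuclei among them were not set apart. Were all 2000 UMIs of each cell drawn from that pool, the shares would be 15.3% and 18.3% in GL261. In GL261-GSCs they would be 3.23%, 3.18%, 2.43% and 3.57%. For Phgdh the cells gave 34.7% in GL261 replicate 1 and free RNA 31.2%. Free RNA comes from the same libraries, so shares this close cannot tell how much of a cell's RNA is free. For that reason the shares are not used as a measure of expression, and the CPM were not corrected for free RNA. Over libraries the exact permutation test (2-sided) gave p = 0.133 for the shares of 9 genes, the smallest that 15 splits allow, and 0.667 for Psph. Without thinning, Atf5 was found in 45.1% and 49.1% of GL261 cells and 7.87% to 14.2% of GL261-GSCs cells.

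Over the 45 pairs of the 10 genes, the median Pearson correlation across cells was 0.04 in both GL261 libraries and 0.02 to 0.05 in GL261-GSCs, and 33 pairs were above 0 in every library. Their size changed with the thinning and scale: the library medians were 0.057 to 0.099 with cells thinned to 5000 UMIs and 0.107 to 0.186 for log-normalized values without thinning. These correlations are given as a description, and pairs share library, depth and free RNA. At 2000 UMIs per cell, the 10 genes' correlations with 5648 other genes had library medians of -0.0016 to -7.9e-05. The 15 pairs among Atf4, Atf5, Ddit3, Trib3, Chac1 and Asns had library medians of 0.04 to 0.11, and 14 of them were above 0 in every library. The 6 pairs among the serine genes had library medians of 0.02 to 0.05, and the 24 pairs of 1 stress and 1 serine gene 0.02 to 0.04. In every library, 4 of the 15 stress pairs reached the 99th percentile of both genes' correlations with the other genes. Of the serine pairs and the mixed pairs, 0 did. The stress pairs had the higher median in 5 of the 6 libraries; in GL261 replicate 2 they gave 0.04 and the serine pairs 0.05. The closest pair was Trib3 and Chac1, from 0.07 to 0.19 (median 0.13), then Ddit3 and Trib3, from 0.06 to 0.17. Ddit3 and Phgdh had a median of -0.004.

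**Figure D4:**
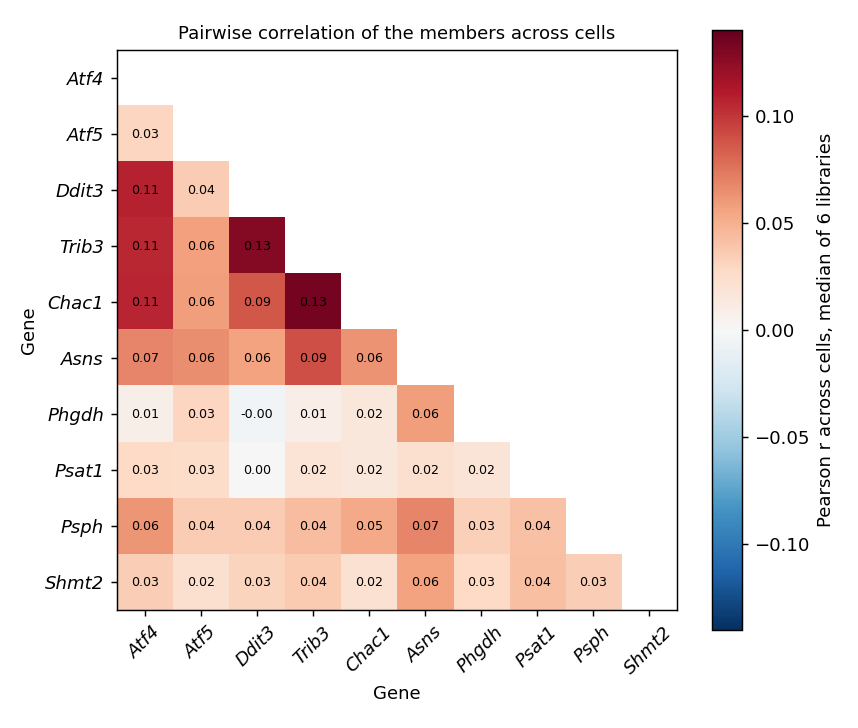
Pearson correlation across cells (thinned to 2000 UMIs) for each pair of genes, median of the 6 libraries, by colour and printed value. The 6 pairs among Atf4, Ddit3, Trib3 and Chac1 lie at 0.09 to 0.13, as does the pair Trib3 and Asns at 0.09. The pairs of Phgdh run from -0.004 (Ddit3) to 0.059 (Asns), and those of Psat1 from 4e-06 (Ddit3) to 0.043 (Shmt2).

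Across cells, the genes most like the sum of the 10, among 5648 other genes of at least 20 CPM in every library and ranked by the lowest correlation over the 6 libraries, were Eif4ebp1, Mthfd2, Gars, Herpud1, Nars, Tars, Cebpb and Eif1. Eif4ebp1, which codes for a brake on cap-dependent translation, ran from 0.14 to 0.21 and Mthfd2 from 0.11 to 0.17. The 99th percentile of all genes was 0.06 to 0.07 and their median -0.0028 to 0.0013. Herpud1, an ER stress gene, ran from 0.08 to 0.16 in 5 libraries and reached 0.40 in GL261-GSCs replicate 2, where it was 0.15 without 2 cells of high Ddit3 (at least 5 of the 2000 UMIs), a value added after seeing the data. Summed, the tRNA synthetase list correlated with the 10 genes at 0.14 to 0.24 and the other stress targets at 0.07 to 0.41, the highest being 0.23 without those 2 cells. The list of ER chaperones and their regulators gave -0.02 to 0.16, the S phase genes -0.03 to 0.06 and the mitochondrial share -0.15 to -0.05.

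**Figure D5:**
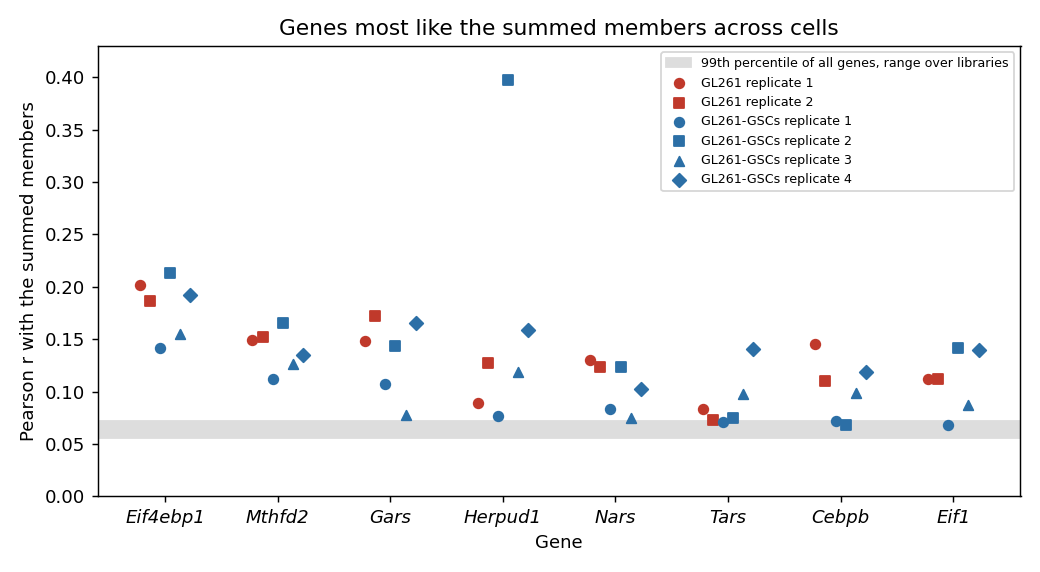
Pearson correlation with the summed 10 genes across cells, 1 point per library, for the 8 genes with the highest lowest value; the grey band is the 99th percentile of all genes over libraries (0.06 to 0.07). Eif4ebp1 lies above the band in every library, and Herpud1 in GL261-GSCs replicate 2 stands alone at 0.40 (0.15 without 2 cells of high Ddit3).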

How the data were processed

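Droplet 5′ single-cell RNA libraries of 2 GL261 and 4 GL261-GSCs samples were used. The deposited matrices hold unnormalized UMI counts for every barcode, made with Cell Ranger 4 per the file headers and mm10 per the submitters' processing notes; the sources used here give neither annotation release nor strand setting. Cells were barcodes with at least 10% of the 99th percentile of UMIs among the top 3000 barcodes, at least 500 genes and under 10% mitochondrial UMIs; no doublet caller was run. Counts were summed over cells per library and tested with edgeR 4.0.16 (quasi-likelihood, TMM, filterByExpr, all 6 libraries, no covariate; R 4.3.3), with DESeq2 1.42.0 and limma 3.58.1 as alternatives; depth was 33320530 to 79472306 UMIs in cells. On simulated counts for this comparison over 18439 genes, 118 of 200 genes changed by 2 on the log2 scale were recovered, with 12 false among 130 calls. In the data 5514 genes passed, far more than the 200 changed there, so these rates need not hold for the data. Coordinates are from GENCODE M21, and promoters from RefSeq.

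The 10 genes and the lists were chosen with earlier results of these data known. The lists cover kinases, eIF2 and phosphatases of the stress response, other stress targets of ATF4, amino acid transporters and other amino acid synthesis. They also cover folate and glycine, cytosolic tRNA synthetases, and ER chaperones with regulators of the ATF6 and XBP1 arms. From each, up to 2 called rises and 2 called falls were named where the average log2 CPM reached 3 and the libraries did not overlap; Aldh1l1, Fgf21 and Stc2 were named after their values were seen. For likeness the 8 genes with the highest lowest correlation were named. The cut for chromosome medians was added after the values were seen.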

Additional observations from a re-analysis of the deposited data

Results flagged for a closer look

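In 37 sets of 4 GL261-GSCs values, 2 had a lowest or highest library set apart from the others by Dixon's test; chance gives about 1 in 20. Atf5 in GL261-GSCs replicate 3 was the low one, at 10.3 CPM against 11.5 to 11.7 CPM, and the share of cells with a UMI of Asns in replicate 2 the high one, at 23.3%.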

How the results depend on the processing

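The count of genes called was 5514, and 1817 to 6193 with 1 library left out; the values without GL261 replicate 1 and without GL261 replicate 2 were 1972 and 1817. Of the 10 genes 5 were called, all lower, 1 to 7 with 1 library left out and 9 with DESeq2's Wald test; of all genes tested, 14.1% were called lower, 4.98% to 15.4% with 1 library left out and 16.7% with DESeq2's Wald test. All 10 stayed below 0 in all 18 settings, and fewer samples remain in the fits that leave 1 out. Those fits could hardly change the sign of genes whose groups did not overlap, which are all but Psph. The cause of the other changes was not tested.

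With 1 library left out the log2 fold changes ran from -0.54 to -0.40 for Atf4, -1.01 to -0.71 for Trib3, -1.84 to -1.51 for Chac1, -1.18 to -0.97 for Asns and -1.08 to -0.74 for Phgdh, and from -1.09 to -0.72 for Psat1, -1.03 to -0.71 for Shmt2, -0.78 to -0.27 for Ddit3 and -0.85 to -0.27 for Psph. Calls gained with DESeq2's Wald test had log2 fold changes of -0.49 for Atf4, -0.55 for Ddit3, -0.91 for Psat1 and -0.92 for Shmt2. Without a filter on low counts Psat1 (-0.91) and Shmt2 (-0.92) passed. With DESeq2's size factors Atf4 passed at -0.49, with an adjusted p of 0.0493. With all barcodes Shmt2 passed at -1.003, and with GL261-GSCs libraries 1 and 2, and 3 and 4, summed (an alternative added after seeing the data) at -0.85. With cells thinned to 2000 UMIs Atf4 passed at -0.62 and Trib3 did not, at -0.72 (adjusted p = 0.0562).

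Between same-numbered libraries, deviations from the group means correlated at -0.0071 and 0.071. With 2 GL261 libraries these values depend on each other, and do not show whether such libraries share more than a number. Replicates 3 and 4 exist only in GL261-GSCs, so in the fit with the replicate block the group difference rests on replicates 1 and 2. That fit called 6512 genes and 7 of the 10, adding Psat1 (-0.56) and Shmt2 (-0.60), and gave -0.036 for Psph. With a term for each replicate number, little is left to estimate each gene's own spread. The calls it added are therefore not counted as support. The median pairwise correlation was 0.076 with cells thinned to 5000 UMIs and 0.128 for log-normalized values without thinning; leaving out the cells of high Ddit3, an alternative chosen after seeing the data, gave 0.042 against 0.041. Of 289 values for 17 named list genes under other settings, 259 kept direction and call, 30 lost the call (23 of them with 1 library left out) and 0 reversed. These list genes were named only where called and where the groups did not overlap. A reversed sign with 1 library left out could therefore hardly arise. UMIs in cells were fewest in GL261-GSCs replicate 4, at 33320530, and 65471984 or more in the other libraries.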

Other observations

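Few cells held much Ddit3. A threshold of 5 UMIs of the 2000 kept per cell, chosen after the values were seen, was reached by 3 cells of GL261 replicate 1, 1 of GL261-GSCs replicate 1, 2 of replicate 2 and 2 of replicate 3, and by 0 in GL261 replicate 2 and GL261-GSCs replicate 4. The 2 cells of GL261-GSCs replicate 2 held 14.4% of the thinned Ddit3 UMIs of that library, with up to 32 in 1 cell and a mean of 76.5 Herpud1 UMIs against 0.136 in its other cells. Without them, Ddit3 in that library was 23.7 CPM in place of 25.8 CPM of called cells (no TMM scaling).

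The serine and stress genes differed in their relation to the S phase genes. Summed over Phgdh, Psat1, Psph and Shmt2, the correlation across cells with the S phase list was 0.02 to 0.11 over the 6 libraries. Summed over the 6 stress genes it was -0.07 to -0.01. The difference and the part of depth in it were not tested, and Tyms stands in both the S phase and the folate list.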
